A study of Mus musculus with 32 samples.

Results

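The genes described here are the nuclear genes for subunits of the mitochondrial respiratory complexes III and IV and of ATP synthase (complex V), with a few related genes that share their symbols. They were taken by symbol, as all mouse genes beginning with Uqcr, with Cox followed by 4 to 8, or with Atp5, leaving out symbols that contain -ps. The rule gave 44 of the 50686 genes in the deposited tables, namely 8 of complex III, 19 of complex IV and 17 of ATP synthase. Complex III passes electrons from ubiquinol to cytochrome c and pumps protons, complex IV passes them on to oxygen, and ATP synthase uses the proton gradient to make ATP. Most subunits are encoded in the nucleus and a few in mitochondrial DNA, and several subunits of complex IV have muscle or testis isoforms encoded by separate genes. In the intestinal crypt the electrons that complexes III and IV pass on come from fuels that include fatty acids, whose entry into mitochondria depends on Cpt1a.

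PolyA RNA was sequenced from sorted crypt cells of C57BL6 mice, in 8 groups of 4 libraries, with 2 female and 2 male libraries labelled per group. Intestinal stem cells were sorted as Lgr5-eGFP high and progenitors as Lgr5-eGFP low, both from cells positive for EpCAM, low or negative for CD24 and negative for CD31, Ter119, CD45 and the dead-cell dye 7AAD. Wild-type mice were Villin-CreER; Lgr5-GFP-IRES-CreER, and Cpt1a-deficient mice carried Cpt1afl/fl with the same alleles, so that every group, controls included, had both CreER drivers. Villin-CreER acts in the intestinal epithelium and Lgr5-CreER in its stem cells, both only after tamoxifen. The diets are labelled High Fat and High Fat Control, called the high-fat and the control diet below, and the age of the mice is not in the labels used here. In sorted populations, fewer cells of one type and less RNA per cell cannot be told apart.

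Library totals ran from 3307711 to 7337425 estimated read counts. Levels of one gene across libraries are given in CPM, the read count per library size scaled by TMM, and levels of different genes in TPM, which takes transcript length into account. Cpt1a, which checks the genotype labels, was between 119 and 347 CPM in the wild-type libraries and between 18.8 and 30.6 CPM in the Cpt1a-deficient ones, and its log2 fold change by genotype was -2.76 and -3.12 in stem cells and -3.07 and -3.41 in progenitors on the control and the high-fat diet. Lgr5, which the sort used, lay between 282 and 515 CPM in stem cells and between 11.9 and 85.7 CPM in progenitors. All 10 stem cell markers listed were higher in stem cells. All 10 goblet, 10 Paneth and 10 enteroendocrine markers, 9 of 10 enterocyte markers and all 7 tuft markers tested were lower in stem cells. Goblet markers summed to 269 to 922 CPM in stem cells and 9676 to 27183 CPM in progenitors, Paneth markers to 226 to 2685 against 4000.2 to 25847 CPM, enteroendocrine markers to 6.02 to 55.8 against 601 to 1462 CPM, and enterocyte markers to 1629 to 3080 against 2930 to 8511 CPM. White blood cell markers summed to at most 14.3 CPM in stem cells and 36.2 CPM in progenitors, with Cd3e and Tyrobp at 0 in all progenitor libraries, and markers of stroma and endothelium to at most 2.30 and 8.13 CPM. Proliferation markers were higher in stem cells for 2 of 10, and the other 8 showed no called difference. In this comparison 32.5% of all genes tested were called higher in stem cells and 31.0% lower. The summed goblet, Paneth and enteroendocrine markers were lower in every stem cell library than in every progenitor library, and the ranges of the enterocyte markers overlapped. Every difference between the populations reported below runs alongside these markers, and their part in it was not tested.

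Promoter sequences are shown for the isoform pairs that the results turn on, Cox7a1 with Cox7a2 and Cox6b2 with Cox6b1, and for 2 genes with a motif of a mitochondrial regulator, Cox6a1 and Atp5g3. They are from RefSeq (GRCm38.p6), which matched 33 of the 44 genes, and each ends at the base before the gene's start in GENCODE. The stretches are chr7:30183921-30184143 on the plus strand for Cox7a1, and on the minus strand chr9:79759879-79760103 for Cox7a2, chr7:4753095-4753344 for Cox6b2, chr7:30626152-30626364 for Cox6b1, chr5:115348982-115349208 for Cox6a1 and chr2:73911327-73911576 for Atp5g3. Each reads 5′ to 3′ in the direction of its gene. Capitals mark matches on either strand to the motifs of NRF1, ERR (TCAAGGTCA) or SP1 (GGGCGG).
Cox7a1: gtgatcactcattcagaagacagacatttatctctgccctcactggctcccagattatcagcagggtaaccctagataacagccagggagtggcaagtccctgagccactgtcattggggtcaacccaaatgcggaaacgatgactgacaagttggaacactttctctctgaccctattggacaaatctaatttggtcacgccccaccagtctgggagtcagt
Cox7a2: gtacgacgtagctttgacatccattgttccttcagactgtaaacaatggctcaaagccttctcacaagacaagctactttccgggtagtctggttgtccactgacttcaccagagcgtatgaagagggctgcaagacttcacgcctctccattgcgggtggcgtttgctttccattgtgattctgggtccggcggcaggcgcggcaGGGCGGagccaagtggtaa
Cox6b2: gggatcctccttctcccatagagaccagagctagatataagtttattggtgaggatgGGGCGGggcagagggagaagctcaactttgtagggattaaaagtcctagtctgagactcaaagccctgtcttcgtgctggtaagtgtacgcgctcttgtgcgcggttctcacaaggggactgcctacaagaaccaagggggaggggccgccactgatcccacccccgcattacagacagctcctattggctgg
Cox6b1: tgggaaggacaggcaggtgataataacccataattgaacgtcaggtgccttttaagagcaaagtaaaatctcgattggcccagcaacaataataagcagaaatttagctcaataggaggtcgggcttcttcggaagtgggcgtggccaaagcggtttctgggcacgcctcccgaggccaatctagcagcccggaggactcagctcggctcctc
Cox6a1: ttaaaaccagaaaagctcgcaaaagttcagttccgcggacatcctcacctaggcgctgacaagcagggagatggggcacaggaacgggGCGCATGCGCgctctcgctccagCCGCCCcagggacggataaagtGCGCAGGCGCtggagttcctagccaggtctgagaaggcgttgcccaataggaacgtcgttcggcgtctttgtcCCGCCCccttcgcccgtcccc
Atp5g3: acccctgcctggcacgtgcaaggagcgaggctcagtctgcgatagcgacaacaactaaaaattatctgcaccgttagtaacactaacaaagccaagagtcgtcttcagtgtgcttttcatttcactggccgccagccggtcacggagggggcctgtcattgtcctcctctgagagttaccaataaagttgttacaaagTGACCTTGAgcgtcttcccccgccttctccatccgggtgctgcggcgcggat

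These and other motifs were searched in the 250 bases before the start of every gene, on both strands. NRF1 and GABPA are activators of nuclear genes for mitochondrial proteins. The strict palindromic NRF1 motif, which is the first run of capitals in the Cox6a1 stretch, was found in 3 of the 33 promoters, those of Cox6a1, Atp5g2 and Atp5k, which is 9.1%, against 1.21% of 17492 protein-coding promoters. With 1 base left free, as in the third run of capitals there, and with the strict motif included, it was in 5 of 33, 15.2%, against 5.84%. The GABPA motif CCGGAAG was in 8 of 33, 24.2%, against 10.2%. These were Uqcr11 and Uqcrh of complex III, Cox6a1 and Cox6b1 of complex IV, and Atp5e, Atp5h, Atp5j and Atp5l of ATP synthase, and in Cox6a1 and Cox6b1 the match lies beyond the stretch printed. The ERR motif was in the Atp5g3 promoter, 3.0% of the 33 against 0.36% of all. The motif of YY1, AAGATGGCG, was in that of Atp5j, 3.0% against 0.84%. The motif of PPAR, the nuclear receptors activated by fatty acids, was in 0 of 33 against 0.0515% of all. The SP1 letters were in 11 of 33, 33.3% against 45.8%, and TATAAA in 2 of 33, 6.1% against 13.7%. The Cox7a1 promoter held none of these motifs, and that of its partner Cox7a2 held SP1 letters. These matches are a description of letters and were not tied to any value below.

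Of the 44 genes, 38 passed the filter on low counts, namely all 8 of complex III, 13 of 19 of complex IV and all 17 of ATP synthase. The 6 that did not are all isoform genes or copies of complex IV. Cox7b2, Cox8b and Cox8c, which are known from testis or muscle, had 0 counts in all 32 libraries, which allows up to 0.409 CPM in the deepest and 0.907 CPM in the shallowest library, for counting error only. Cox4i2, the isoform known from lung, had 1 count in all, and Cox6a2, the muscle isoform, had 7 counts, in 6 progenitor libraries. Cox6c2, annotated as a processed pseudogene, had 116 counts and shares 52.7% of its 50-base stretches with other genes.

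The summed TPM of each complex shows how much of the polyA RNA these genes made up. ATP synthase subunits summed to 12864 to 17093 TPM in stem cells and 13510 to 19097 TPM in progenitors, complex IV to 8255 to 12085 against 9278 to 13366 TPM, and complex III to 6433 to 8521 against 6758 to 9875 TPM. The ranges of the 16 libraries of each population overlapped for every complex. The mean over all libraries was highest for Atp5b, the catalytic beta subunit of ATP synthase, with 3132 TPM. Within complex III it ran from 421 TPM for Uqcrc2 to 1665 TPM for Uqcrc1, both core proteins. Within complex IV the highest was Cox6b1 with 1601 TPM and the lowest of the tested genes was Cox6b2 with 13.3 TPM. In ATP synthase the lowest were Atp5g2 with 42.5 TPM and Atp5s with 46.1 TPM.

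Libraries of one group differed from each other in the 3 complexes together. In 23 of the 32 libraries at least 80% of the 38 genes lay on the same side of their group's mean, while between 47.6% and 54.1% of all genes lay above it. In stem cells of Cpt1a-deficient mice on the high-fat diet all 38 genes of library a were above the group mean, with a median deviation of 0.44 on the log2 scale, and all 38 of library b were below it, with a median of -0.38. Among wild-type libraries of stem cells on high fat, all 38 genes of library d were above it (median 0.33) and 37 of library b below (median -0.31). The genes of one library are therefore not independent measurements, and a count of genes with the same sign is not a count of replicates.

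**Figure D1:**
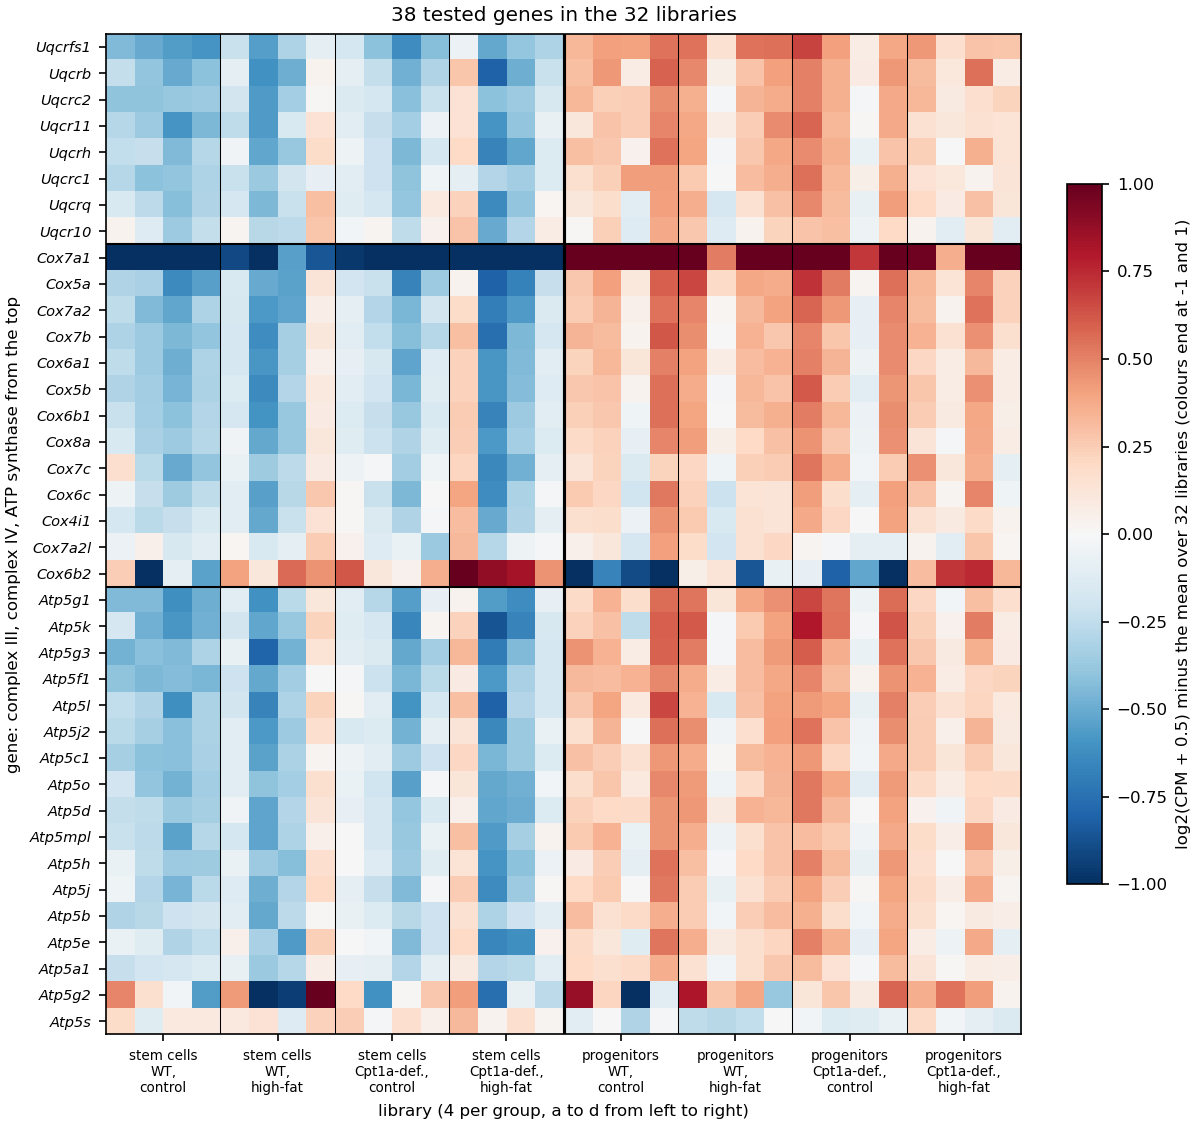
Each row is one of the 38 tested genes and each column one of the 32 libraries, 4 per group, coloured by log2 of CPM plus 0.5 minus the gene's mean over all libraries. Rows are mostly blue in the 16 stem cell libraries and red in the 16 progenitor libraries, Cox6b2 runs the other way, and whole columns are shaded together within a group.

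Stem cells had lower levels than progenitors of nearly all tested genes of the 3 complexes. With the 4 diet and genotype groups of each population combined, 34 of 38 were lower in stem cells, 2 were higher (Cox6b2 and Atp5s) and 2 did not pass (Cox7a2l and Atp5g2), by edgeR's quasi-likelihood test at an adjusted p of 0.05 over the 13088 genes tested. Of all genes tested, 31.0% were lower and 32.5% higher, 63.5% in all. DESeq2 called the same numbers, 34 lower and 2 higher, with 31.4% and 32.0% of all genes. The median log2 fold change was -0.50 for complex III, -0.51 for complex IV and -0.47 for ATP synthase, beside 0.02 over all genes. These folds are relative to TMM scaling. The median over all genes moved to 0.19 when libraries were scaled by their totals and to 0.27 on the deposited scale of log2(TPM + 1), which understates changes of low genes and where 7617 genes were higher and 1981 lower against 4259 and 4056 with TMM, and where the medians of the complexes were -0.22, -0.24 and -0.19. On that scale limma called 24 of the 38 lower and 3 higher, with 15.1% and 58.2% of all genes. In 3 of the 38, Uqcrfs1, Uqcrc1 and Cox7a1, every stem cell library was below every progenitor library, as in 6.95% of all genes. Changes below are therefore to be read against the median of all genes on the same scale.

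**Figure D2:**
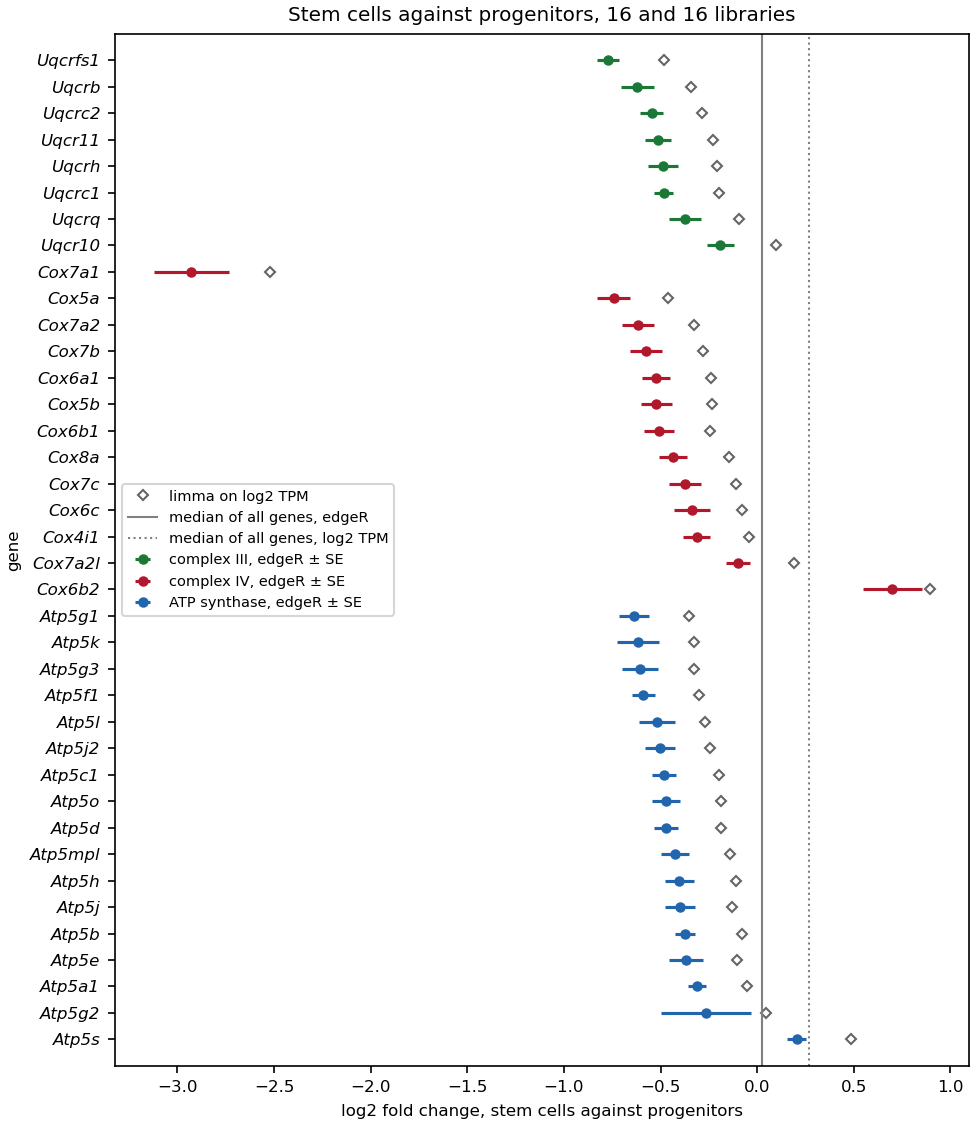
Points show the log2 fold change of stem cells (16 libraries) against progenitors (16 libraries) for the 38 tested genes by edgeR with its standard error, and open diamonds the limma value on log2 TPM. Vertical lines give the median of all genes on each scale, 0.02 and 0.27. All points of complex III lie below 0, and Cox7a1 lies far from the other genes at -2.93.

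In complex III all 8 genes were lower in stem cells. The fold in this complex was largest for Uqcrfs1, the Rieske iron-sulfur protein that takes electrons from ubiquinol. Its level lay between 258 and 380 CPM (median 297) in the 16 stem cell libraries and between 417 and 635 CPM (median 525) in the 16 progenitor libraries. No stem cell library reached the lowest progenitor library, and the log2 fold change was -0.77 ± 0.06 (SE; edgeR adjusted p = 7.47e-13). Uqcrc1, a core protein, ran from 1126 to 1453 CPM (median 1252) in stem cells and from 1500 to 2184 CPM (median 1774) in progenitors, again without overlap, with a log2 fold change of -0.48 ± 0.05 (edgeR adjusted p = 3.87e-10). Its partner Uqcrc2 differed by -0.54 ± 0.06 and the small subunit Uqcr11 by -0.51 ± 0.07 on the log2 scale. Uqcrb, Uqcrh and Uqcrq, small subunits around the core, lay at -0.62, -0.49 and -0.37. The smallest difference was that of Uqcr10, at 190 to 331 CPM in stem cells and 248 to 353 CPM in progenitors. Its log2 fold change of -0.19 ± 0.07 (edgeR adjusted p = 0.0207) did not pass with library totals (-0.03, adjusted p = 0.737) or without the filter (-0.18, adjusted p = 0.0518). On the log2 TPM scale it was 0.10 (limma adjusted p = 0.106), below the median of all genes there. Cyc1, the cytochrome c1 subunit of this complex that the symbol rule leaves out, was lower with a log2 fold change of -0.62 ± 0.07, while mt-Cytb, encoded in mitochondrial DNA, was at -0.13 ± 0.07 and did not pass.

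In complex IV, 11 of 13 tested genes were lower, 1 was higher and 1 did not pass. The subunits found in most tissues ran from -0.31 to -0.74. Cox5a differed by -0.74 ± 0.09 on the log2 scale, Cox7a2 by -0.62 ± 0.08, Cox7b by -0.57 ± 0.08, Cox6a1 by -0.53 ± 0.07 (each under an edgeR adjusted p of 0.05), Cox5b by -0.52 and Cox6b1 by -0.51. Cox8a, Cox7c, Cox6c and Cox4i1, the subunit through which ATP inhibits the enzyme, lay at -0.43, -0.37, -0.34 and -0.31. The Cox4i1 value was -0.04 on the log2 TPM scale and did not pass there. Cox7a2l was at 86.6 to 141 CPM in stem cells and 98.6 to 150 CPM in progenitors, and its log2 fold change was -0.10 ± 0.06 (edgeR adjusted p = 0.155). Its sign depended on the scaling, at 0.07 with library totals and 0.19 on the log2 TPM scale (limma adjusted p = 0.00117). On each scale it lay below the median of all genes given above. Of the subunits outside the symbol rule, Ndufa4 was lower (-0.46 ± 0.07). The genes mt-Co1, mt-Co2 and mt-Co3 did not pass (0.02 ± 0.08, -0.28 ± 0.18 and -0.36 ± 0.77). The level of mt-Co3 varied widely, from 0.15 to 513 CPM in stem cells and from 0.17 to 529 CPM in progenitors, so its value cannot show whether it differed.

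Cox7a1 and Cox6b2, isoform genes of complex IV, had the lowest and the highest fold of all 38. Cox7a1, known as the heart and skeletal muscle form of subunit 7a (chr7:30184144-30186078, GRCm38, plus strand, protein-coding), lay between 1.25 and 5.38 CPM (median 3.18) in stem cells and between 10.5 and 41.3 CPM (median 21.9) in progenitors. The lowest progenitor library was above the highest stem cell library, and the log2 fold change was -2.93 ± 0.19 (edgeR adjusted p = 1.46e-13), a 7.61-fold difference. Per length, Cox7a1 made up 1.24% to 5.31% of the summed TPM of Cox7a1 and Cox7a2 in stem cells (median 2.61%) and 6.72% to 19.3% in progenitors (median 10.8%). Cox7a2, its counterpart in most tissues, lay between 121 and 221 CPM in stem cells and 184 and 291 CPM in progenitors, and these ranges overlapped. With the groups taken singly, the Cox7a1 log2 fold change was -3.34 in wild type on the control diet, -2.76 in wild type on the high-fat diet, -2.94 in Cpt1a-deficient cells on the control diet and -2.67 on the high-fat diet, each passing.

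Cox6b2, known as the testis form of subunit 6b (chr7:4751792-4753094, GRCm38, minus strand, protein-coding), ran the other way at a low level. It lay between 1.38 and 10.4 CPM (median 4.68) in stem cells and between 1.37 and 6.15 CPM (median 2.75) in progenitors. The populations overlapped, and the log2 fold change was 0.70 ± 0.15 (edgeR adjusted p = 0.000218). Cox6b1, the form found in most tissues, lay between 233 and 441 CPM in stem cells and between 355 and 543 CPM in progenitors. Per length, Cox6b2 was at most 2.26% of the 2 genes' summed TPM in any stem cell library and at most 1.06% in any progenitor library. Neither Cox6b2 nor Cox7a1 shares a 50-base stretch with another annotated gene, and neither overlaps one.

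**Figure D3:**
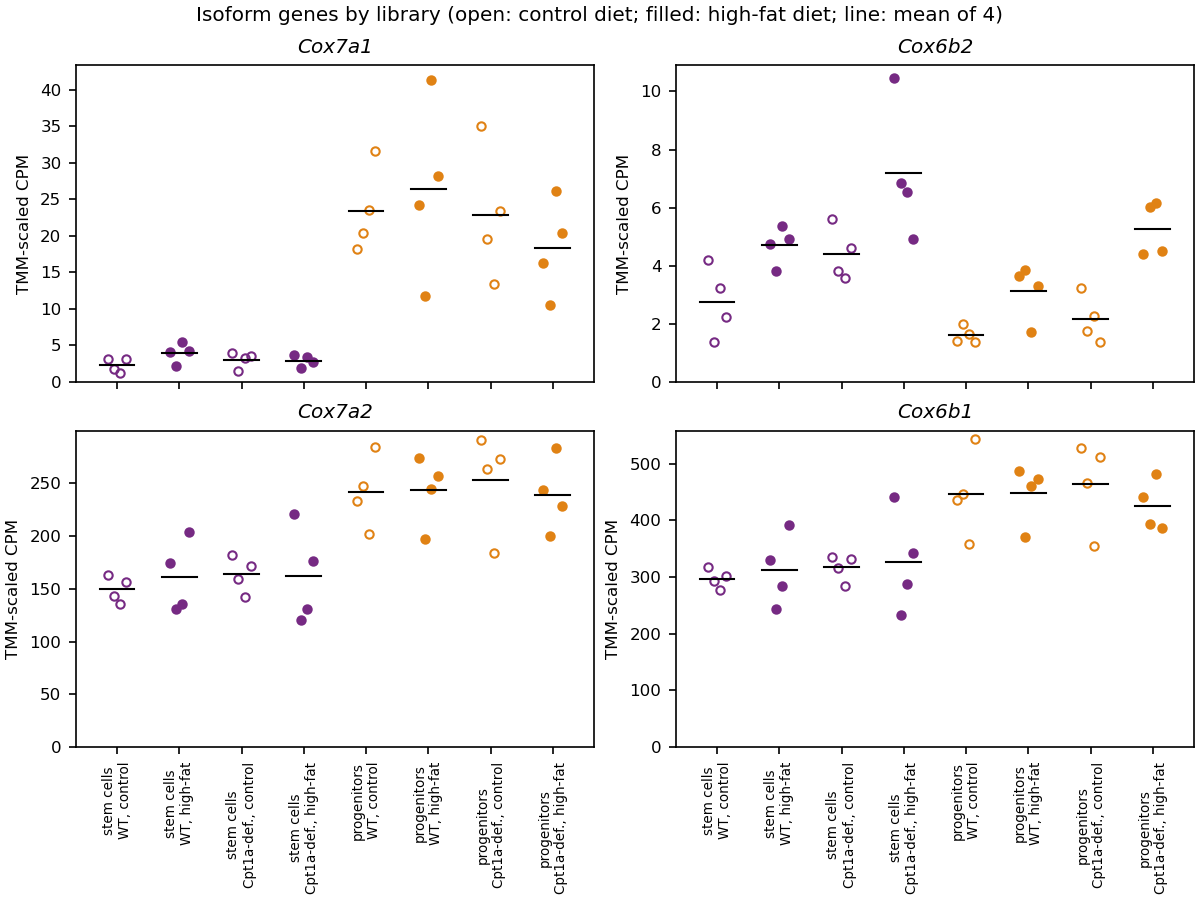
Each panel plots one gene in TMM-scaled CPM by group, with the 4 libraries of a group as points (open on the control diet, filled on the high-fat diet) and their mean as a line, each on an axis from 0. Cox7a1 is at 5.38 CPM or less in every stem cell library and at 10.5 CPM or more in every progenitor library, and the means of Cox6b2 are higher on the high-fat than on the control diet in each population and genotype.

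In ATP synthase, 15 of 17 genes were lower in stem cells, 1 was higher and 1 did not pass. In the catalytic head, the alpha and beta subunits had a log2 fold change of -0.31 ± 0.05 for Atp5a1 and -0.37 ± 0.05 for Atp5b. Atp5b lay between 2630 and 4171 CPM (median 3254) in stem cells and between 3678 and 4838 CPM (median 4255) in progenitors, so that the populations overlapped. The stalk subunits gamma (Atp5c1), delta (Atp5d) and epsilon (Atp5e) were at -0.48 ± 0.06, -0.47 ± 0.06 and -0.37 ± 0.09. Atp5f1, subunit b of the peripheral stalk, lay between 430 and 680 CPM (median 509) in stem cells and between 657 and 902 CPM (median 802) in progenitors. The ranges overlapped between 657 and 680 CPM, and its log2 fold change of -0.59 ± 0.06 had the smallest edgeR adjusted p of this complex, 4.91e-10. The other stalk subunits Atp5o (OSCP), Atp5h (d) and Atp5j (F6) were at -0.47, -0.40 and -0.40. Of the small membrane subunits, Atp5k (e) was at -0.62, Atp5l (g) at -0.52, Atp5j2 (f) at -0.50 and Atp5mpl at -0.42.

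Subunit c, which forms the rotating ring in the membrane, is encoded by Atp5g1, Atp5g2 and Atp5g3, whose mature proteins are the same. Atp5g1 lay between 265 and 442 CPM in stem cells and 394 and 650 CPM in progenitors, with a log2 fold change of -0.64 ± 0.08 (edgeR adjusted p = 2.78e-08), the lowest of this complex. Atp5g3 was close to it at -0.61 ± 0.09. Atp5g2 varied widely within each population, from 5.06 to 36.3 CPM in stem cells and from 2.61 to 33.0 CPM in progenitors, and did not pass (-0.26 ± 0.23, edgeR adjusted p = 0.328). It was at 0.04 on the log2 TPM scale, below the median of all genes there. The share of each gene differed little between the populations. Atp5g3 made up a median of 53.7% of their summed TPM in stem cells and 53.4% in progenitors, Atp5g1 43.8% and 44.9%, and Atp5g2 2.10% and 1.67%. Atp5s, known as coupling factor B and not a core subunit, was the gene that was higher in stem cells. It lay between 39.8 and 54.6 CPM in stem cells and between 35.3 and 49.6 CPM in progenitors, with a log2 fold change of 0.20 ± 0.05 (edgeR adjusted p = 0.000608). Outside the rule, Usmg5 and Atpif1, the inhibitor of the enzyme's reverse reaction, were lower (-0.48 ± 0.10 and -0.36 ± 0.06). The genes mt-Atp6 and mt-Atp8 did not pass (-0.12 ± 0.08 and -0.11 ± 0.08).

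Some of these genes are hard to count. Atp5g2 shares 38.3% of its 50-base stretches with other annotated genes, Uqcrb 25.4%, Cox7c 22.1%, Atp5h 19.9%, Atp5o 14.0%, Cox7a2l 13.8%, Cox5b 11.9% and Atp5g1 10.2%. Their reads may therefore have been divided with those other genes. On the opposite strand the longest overlaps are those of Cox6c with Vps13b (5344 bases) and of Atp5o with Gm15976 (3422 bases). Atp5d overlaps Cbarp, Uqcrc2 overlaps Pdzd9, Atp5f1 overlaps Wdr77 and Atp5j overlaps Gabpa on that strand too, among others. The strand setting of the counting is not given in the sources used here. On the same strand, the protein-coding Gm20388 covers Cox4i1 over 5986 bases, and a further annotated gene named Atp5o overlaps Atp5o over 1769 bases, so that reads there cannot be assigned by strand.

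Group by group, the median of each complex was below 0 throughout and the number of genes called differed. In wild type on the control diet 30 of 38 were lower and 0 higher (7 of complex III, 9 of complex IV, 14 of ATP synthase), where 22.0% of all genes were lower and 19.3% higher, 41.4% in all. The medians were -0.68, -0.59 and -0.58. In 28 of the 38 every stem cell library was below every progenitor library, as in 20.5% of all genes. In wild type on the high-fat diet 24 were lower and 1 higher, Atp5s, with 20.1% of all genes lower and 17.3% higher, 37.3% in all. The medians were -0.47, -0.47 and -0.43, and 8 of 38 did not overlap, as in 17.9% of all genes. The count was 15 without stem cell library b and 16 without progenitor library a.

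In Cpt1a-deficient cells on the control diet 32 were lower and 1 higher, Cox6b2, with 19.5% of all genes lower and 17.3% higher, 36.8% in all, and medians of -0.52, -0.54 and -0.47. Of the 38, 22 were below without overlap (17.1% of all genes) and 2 above, Cox6b2 and Atp5s (15.4%). In Cpt1a-deficient cells on the high-fat diet 15 were lower (5, 6 and 4 in the 3 complexes) and 0 higher, with 17.3% of all genes lower and 14.1% higher, 31.4% in all. The medians were -0.36, -0.38 and -0.35, and 4 of 38 did not overlap, as in 15.8% of all genes: Uqcrc1, Uqcrfs1, Cox5a and Cox7a1. This count rested on single libraries. It was 32 without stem cell library a, 5 without stem cell library b, 4 without stem cell library c, 8 without progenitor library a and 6 without progenitor library c. Whether the population difference itself changed with diet or genotype was tested by the difference of the effects, where 0 of 38 passed in any of the 4 tests by edgeR, DESeq2 or limma, 0 had an unadjusted p under 0.05 in edgeR, and 0% of all genes passed in each by edgeR. DESeq2 called 1 of the 13088 genes for diet in wild type and 2 for genotype on the control diet, none of them among the 38. In edgeR, 3.23% and 2.96% of all genes had an unadjusted p under 0.05 for diet in wild type and Cpt1a deficiency, and 2.53% and 2.01% for genotype on the high-fat and the control diet.

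Most other nuclear genes of the pathway were lower in stem cells as well, where 31.0% of all genes tested were lower and 32.5% higher. Of the 36 complex I subunits listed, which pass electrons from NADH to ubiquinone, 35 were lower with a median log2 fold change of -0.42, and all 4 of complex II were lower, Sdhb most (-0.73 ± 0.06). Cytochrome c (Cycs), the carrier between complexes III and IV, was at -0.86 ± 0.08. Among assembly factors, 5 of 6 for complex III, 18 of 24 for complex IV and 3 of 6 for ATP synthase were lower. Sco1, which delivers copper, and Cox10, which makes the haem of complex IV, were at -0.56 and -0.55, and Atpaf2 at -0.39. Markers of mitochondrial content were lower in 12 of 13, among them citrate synthase (Cs) at -0.72 ± 0.05 and the outer membrane channel Vdac2 at -0.56 ± 0.05. The phosphate carrier Slc25a3 and the ADP/ATP carrier Slc25a5 were lower (-0.40 and -0.41), and the other ADP/ATP carrier, Slc25a4, known from heart and muscle, was higher (0.68 ± 0.09). Of 16 regulators of mitochondrial genes, 6 were higher and 4 lower, which is near the shares of all genes. Among them Esrrg was at 1.24 ± 0.08, Esrra at -0.57 ± 0.08 and Ppara at -0.57 ± 0.13, while Gabpa, Tfam and Ppargc1a did not pass.

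In the 4 single diet comparisons the high-fat diet moved none of the 38 genes past the threshold by edgeR, and Cox6b2 passed in 1 of them by DESeq2 and limma. By edgeR, 0 of 38 passed in each, where 0.250% of all genes passed in wild-type stem cells, 0.0645% in Cpt1a-deficient stem cells, 0.0883% in wild-type progenitors and 0.313% in Cpt1a-deficient progenitors. At an unadjusted p under 0.05 there were 2, 1, 1 and 4 of 38, with 11.7%, 4.71%, 7.06% and 9.77% of all genes. DESeq2 and limma called 0 in the first 3 and 1 each in Cpt1a-deficient progenitors, which was Cox6b2 in both (adjusted p = 0.0452 and 0.0411). In wild-type stem cells all 8 genes of complex III, all 13 of complex IV and 16 of 17 of ATP synthase had a positive value, with medians of 0.14, 0.10 and 0.13, beside 0.01 over all genes. Uqcrfs1 was at 263 to 292 CPM in the 4 control libraries and at 271, 320, 339 and 373 CPM in the 4 high-fat libraries, which overlapped, and its log2 fold change was 0.24 ± 0.11 (edgeR adjusted p = 0.417). The other complex III genes lay between 0.12 and 0.24, and those of ATP synthase up to 0.30. The highest of these, Atp5g1, was at 0.30 ± 0.16 (adjusted p = 0.471), and Cox7a1 was at 0.76 ± 0.38 (adjusted p = 0.451).

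In Cpt1a-deficient progenitors the values ran the other way, with 8 of 8, 11 of 13 and 15 of 17 below 0. The medians were -0.13, -0.10 and -0.15, beside -0.001 over all genes. Complex III ran from -0.24 to -0.09 and ATP synthase from -0.30 to 0.07. Uqcrc1 was at 1552 to 2184 CPM on the control diet and 1530 to 1648 CPM on the high-fat diet, which overlapped, with a log2 fold change of -0.24 ± 0.10 (edgeR adjusted p = 0.446). Atp5d was at -0.26 ± 0.11 (adjusted p = 0.426) and Atp5g1 at -0.29 ± 0.14 (adjusted p = 0.489). In Cpt1a-deficient stem cells and wild-type progenitors the medians lay between -0.04 and 0.03. The difference of the diet effect between genotypes had 0 of 38 past the threshold in stem cells and in progenitors by edgeR, DESeq2 and limma, 0 at an unadjusted p under 0.05 in edgeR (3.58% and 4.50% of all genes), and 0% of all genes passed by edgeR.

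In the 4 single genotype comparisons, loss of Cpt1a moved none of the 38 past the threshold by any of the 3 tools. By edgeR 0 of 38 passed in each, where 0.242% of all genes passed in control-diet stem cells, 0.443% in high-fat stem cells, 0.257% in control-diet progenitors and 0.706% in high-fat progenitors. DESeq2 and limma also called 0 of 38 in each. At an unadjusted p under 0.05 there were 1, 1, 0 and 1 of 38 in edgeR, with 4.73%, 6.38%, 5.80% and 10.6% of all genes, and the gene was Cox6b2 each time. In stem cells on the control diet 36 of 38 values were positive, with medians of 0.12, 0.11 and 0.11 in the 3 complexes, beside -0.0006 over all genes. In high-fat progenitors 28 of 38 were negative, with medians of -0.09, -0.02 and -0.07, beside 0.005 over all genes. Since the genes of a library shift together, these counts of signs are not counts of replicates. The values of high-fat stem cells and control-diet progenitors had medians between -0.02 and 0.07. Cox7a1 had the lowest value in high-fat stem cells and in high-fat progenitors, at -0.45 ± 0.37 and -0.52 ± 0.38 (edgeR adjusted p = 0.969 and 0.683), and was at 0.37 ± 0.39 and -0.01 ± 0.37 in the control-diet stem cells and progenitors.

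**Figure D4:**
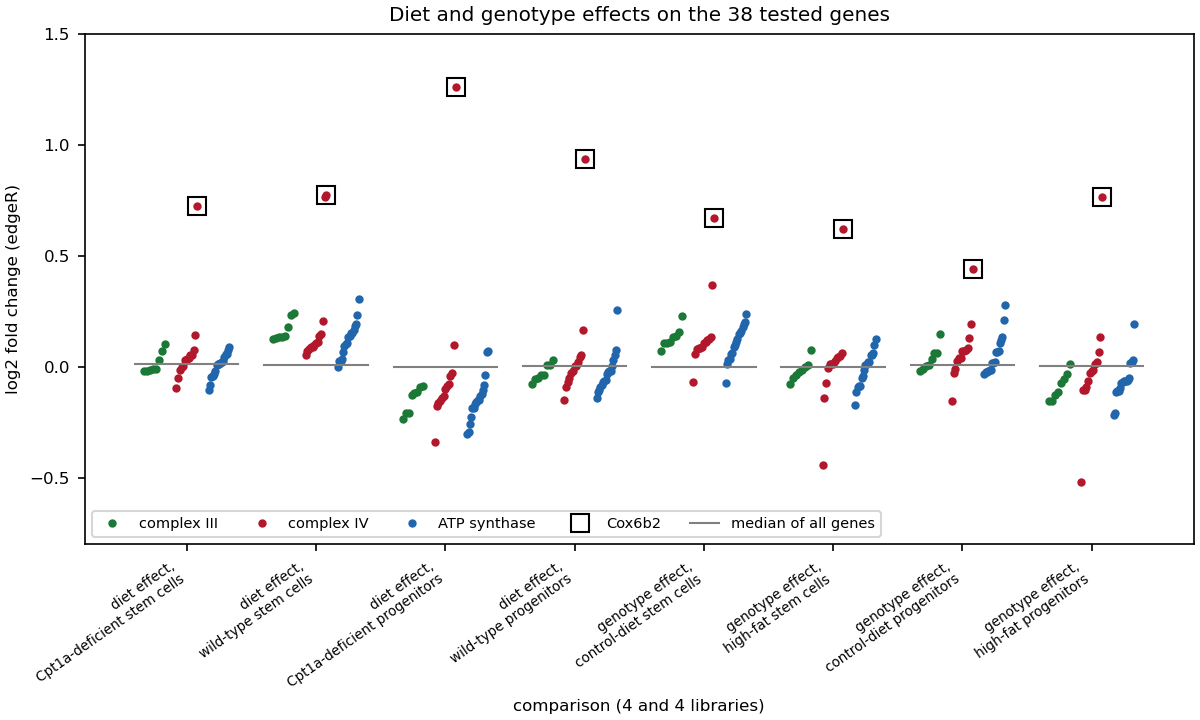
Each point is the edgeR log2 fold change of one of the 38 tested genes in a comparison of 4 against 4 libraries, coloured by complex, with a square around Cox6b2 and a grey line at the median of all genes. Most points lie close to the line, and Cox6b2 is the highest point in each of the 8 comparisons, from 0.44 to 1.26.

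Cox6b2 had the highest value of the 38 in each diet and genotype comparison, and none of these passed by edgeR. Its counts were low, between 5 and 61 reads per library. Its CPM in stem cells was 4.20, 1.38, 3.21 and 2.24 in wild type on the control diet and 4.75, 3.80, 5.38 and 4.93 on the high-fat diet, which overlapped. In Cpt1a-deficient stem cells it was 5.62, 3.80, 3.58 and 4.60 on the control diet and 10.4, 6.84, 6.55 and 4.91 on the high-fat diet, which overlapped too. Wild-type progenitors had 1.41, 2.0, 1.63 and 1.38 CPM on the control diet and 3.63, 3.84, 1.70 and 3.28 on the high-fat diet. Cpt1a-deficient progenitors had 3.24, 1.76, 2.26 and 1.37 CPM on the control diet and 4.41, 6.03, 6.15 and 4.50 on the high-fat diet, so that all 4 high-fat libraries were above all 4 control libraries, in this gene alone of the 38 and in 3.29% of all genes. The high-fat Cpt1a-deficient progenitors were also all above the high-fat wild-type ones, again in this gene alone and in 3.44% of all genes. In the other 6 comparisons of diet or genotype the groups overlapped for all 38 genes.

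The diet effect on Cox6b2 was 0.77 ± 0.31 on the log2 scale in wild-type stem cells (edgeR adjusted p = 0.344), 0.73 ± 0.29 in Cpt1a-deficient stem cells (adjusted p = 0.983), 0.93 ± 0.34 in wild-type progenitors (adjusted p = 0.573) and 1.26 ± 0.30 in Cpt1a-deficient progenitors (adjusted p = 0.0932). The genotype effect was 0.67 ± 0.31 in control-diet stem cells, 0.62 ± 0.29 in high-fat stem cells, 0.44 ± 0.34 in control-diet progenitors and 0.76 ± 0.30 in high-fat progenitors, with edgeR adjusted p of 1.0, 0.766, 0.930 and 0.348. The diet and genotype comparisons share groups, so these 8 values are not independent. After these values had been seen, the mean of the 4 diet effects and the mean of the 4 genotype effects were tested over all 32 libraries. The mean diet effect was 0.92 ± 0.15, or 1.90-fold (edgeR adjusted p = 0.000278), and the mean genotype effect 0.62 ± 0.15, or 1.54-fold (edgeR adjusted p = 0.0174). Cox6b2 was the only one of the 38 called in each, where 3.49% and 3.10% of all genes were called. Since the contrasts were chosen with the single values known, these p-values are a description and not independent support.

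Leaving out each of the 32 libraries in turn gave a mean diet effect between 0.86 and 0.99 and a mean genotype effect between 0.55 and 0.69, with Cox6b2 called each time. For Cox7a1 the mean diet effect was 0.13 ± 0.20 (edgeR adjusted p = 0.831) and the mean genotype effect -0.15 ± 0.20 (edgeR adjusted p = 0.818). The median of the mean diet effect was 0.0043, 0.0041 and -0.0045 in the 3 complexes. In the same averaged diet contrast, where 3.49% of all genes were called in either direction, some listed markers were higher. These were 3 of 10 of goblet, 3 of 10 of Paneth, 2 of 10 of enteroendocrine and 4 of 10 of enterocyte cells, with medians of 0.47, 0.97, 0.55 and 0.75. The 4 enterocyte genes include Fabp1, which encodes a fatty acid-binding protein (3.07 ± 0.25, edgeR adjusted p = 1.23e-08). Of the enterocyte list 1 was lower, of the stem cell list 1 of 10 was lower, and of the tuft list 0 of 7 passed. In the averaged genotype contrast, where 3.10% of all genes were called, 0 of 10 passed in the first 3 of these lists. Of the enterocyte list 2 of 10 passed, among them Fabp1 (2.29 ± 0.24, edgeR adjusted p = 4.87e-07). The part of these markers in the Cox6b2 values was not tested. Of the pathway genes outside the 3 complexes, Slc25a4 was higher in Cpt1a-deficient high-fat progenitors (0.69 ± 0.15, edgeR adjusted p = 0.0385). It was also higher in the averaged genotype contrast (0.41 ± 0.09, edgeR adjusted p = 0.00286). Its genotype effect was 0.40 in control-diet stem cells, 0.37 in high-fat stem cells and 0.19 in control-diet progenitors, and these did not pass. Ppargc1a was lower in the averaged diet contrast (-0.58 ± 0.12, edgeR adjusted p = 0.00325).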

How the data were processed

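RNA of sorted mouse stem cells and progenitors was measured in 32 libraries. Per the submitters' processing notes, STAR 2.5.3a, RSEM 1.3.0 and SAMtools 1.3 were used with mm10, with no roles, annotation or strand setting given. One table deposited by the authors holds expected counts of reads for each gene, as whole numbers, and 2831 values were 0 where TPM was above 0. The other, deposited by the authors too, is on the log2 scale, of TPM plus 1.

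Symbols were found for 50376 of 50686 gene IDs, and positions were taken from GENCODE M21 (GRCm38, the build also called mm10). IDs lacking one held 0.0677% of all counts. The rule also left out 6 genes with -ps. The symbols chosen and the lists used were set with earlier results of these data known.

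The tests used robust quasi-likelihood fits in edgeR 4.0.16 on counts scaled by TMM, after filterByExpr with a minimum count of 10, and p-values were adjusted by Benjamini-Hochberg over all genes (13088 with all 32 libraries, 12409 in stem cells, 12460 in progenitors). Stem cells against progenitors was fitted over all 32 libraries, and diet and genotype within each population. Standard errors were computed as the size of the log2 value divided by the root of its F statistic. Alternatives were DESeq2 1.42.0, limma 3.58.1 on the deposited log2 TPM, DESeq2 size factors, library totals, no filter, only the groups compared, the Xist level as a covariate, and leaving out each library. Library totals had a median of 5655066.5 counts. The fits were tested on simulated data. There edgeR found 46% of 1.5-fold changes for diet in wild-type stem cells and 58% in wild-type progenitors. Of 2-fold changes it found 85% and 87%. For stem cells against progenitors over all groups it found 94% of 1.5-fold changes. Some simulated calls at an adjusted p under 0.05 were false. In edgeR these were 22 of 215 for stem cells against progenitors, and for diet 6 of 159 in wild-type stem cells and 7 of 168 in wild-type progenitors. In DESeq2 they were 17 of 211, 20 of 183 and 26 of 197 in the same order. Changes under 1.5-fold were not simulated. Changed genes were drawn only from those above a lower limit on mean CPM. Cox6b2 in progenitors (mean 3.04 CPM) and Cox7a1 in stem cells (mean 3.03 CPM) were below that limit. Cox6b2 in stem cells (mean 4.76 CPM) was near it. The shares found may therefore not hold for genes this low.

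Genes named in stem cells against progenitors included, per complex, those with the smallest adjusted p, the lowest and highest fold and those that did not pass. All isoform and subunit c genes and those with the highest and lowest TPM were also named. In the diet and genotype comparisons some genes with a small p or an extreme fold were named, and in some complexes none. Since column names show the group alone, the letters a to d follow column order, and the Xist level took the place of a term for sex. The labels do not say that libraries came from separate animals, so p-values measure the spread between these samples only.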

Additional observations from a re-analysis of the deposited data

Results flagged for a closer look

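In 4 of 144 sets of 4 library values looked at, the value at one end lay far from the other 3, and chance alone gives about 1 in 20. In wild-type progenitors on the control diet the summed TPM of complex III was 9373 in library d, against 8276 to 8423 in the others. Wild-type progenitors on the high-fat diet had the other 3. Uqcrfs1 was 441 CPM in library b, against 577 to 581 CPM in the others, and Cox7a2l was 98.6 CPM in the same library, against 125 to 130 CPM. Atp5s was 43.6 CPM in library d, against 35.8 to 36.6 CPM. These libraries also lay to one side in most of the 38 tested genes. In library d on the control diet 37 were above the group mean. On the high-fat diet 36 were below it in library b and 35 above it in library d. The cause was not tested.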

How the results depend on the processing

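No paired analysis was possible because the columns of the tables carry no replicate number. Whether stem cell and progenitor libraries came from the same animals was not tested, and the fits treat them as independent. For stem cells against progenitors over all groups 36 of 38 genes were called with each left-out library, 36 with DESeq2 and 27 with limma on log2 TPM. By group, the counts with each library left out ran from 26 to 33 in wild type on the control diet, 15 to 30 in wild type on the high-fat diet, 23 to 34 in Cpt1a-deficient cells on the control diet and 4 to 32 on the high-fat diet. The 25 of wild type on the high-fat diet became 15 with library totals, 7 with limma and 16 without the filter, and the 33 of Cpt1a-deficient cells on the control diet became 16 with limma. The 15 of Cpt1a-deficient cells on the high-fat diet became 7 with library totals, 4 with limma, 8 without the filter and 8 with only the groups compared. The 0 of the diet effect in Cpt1a-deficient progenitors became 1 with DESeq2 and 1 with limma. Diet, genotype and interaction counts stayed at 0 with each left-out library, and the averaged contrasts at 1. Values that changed sign were Uqcr10 (0.10 with limma at either pseudocount), Cox7a2l (0.066 with library totals, 0.19 with limma at either pseudocount) and Atp5g2 (0.043 with limma, and 0.050 at a pseudocount of 0.1) in stem cells against progenitors. With library totals and on the deposited log2 TPM scale, these values lay below the median of all genes. With each library left out, the genotype effect in high-fat stem cells ran from -0.057 to 0.176 for Uqcrc2 and from -0.0050 to 0.176 for Atp5b, both lowest without library a of the Cpt1a-deficient cells, and Uqcrc2 was also below 0, at -0.021, without library b of the wild type. The diet effect on Atp5b in Cpt1a-deficient stem cells ran from -0.026 without library a on the high-fat diet to 0.131. The cause of these changes was not tested. Depth limits the genes at 0, since a count of 0 allows up to 0.907 CPM in the shallowest library.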
